A study of Sus scrofa with 24 samples.

Results

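The glucocorticoid receptor gene NR3C1, the cortisol-activating enzyme gene HSD11B1 and 8 genes known as targets of the receptor (FKBP5, TSC22D3, PER1, ZBTB16, KLF9, DUSP1, SGK1 and ERRFI1) were followed through adipogenic culture of pig preadipocytes. The 10 genes were chosen by name. Of these, 9 were found by gene symbol among the 25462 genes of the expression table, and all 9 were among the 16135 genes tested. TSC22D3 was not analysed here.

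Glucocorticoids enter the cell and bind the receptor encoded by NR3C1, which is held in the cytoplasm by a complex of heat shock proteins and co-chaperones. The bound receptor moves to the nucleus, binds DNA and raises or lowers the transcription of its targets. Cells can also make their own active hormone, since 11β-hydroxysteroid dehydrogenase type 1, the product of HSD11B1, turns inactive cortisone into cortisol and is active in fat tissue. Dexamethasone, a synthetic glucocorticoid, is a standard part of the media that drive preadipocytes to become fat cells.

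The cells were primary preadipocytes of 6-day-old Yorkshire piglets, isolated from back subcutaneous fat (BF) or from digested longissimus dorsi muscle of the loin and back (IMF, the intramuscular cells). Cells of both depots were collected on days 0, 2, 4 and 8, with 3 replicates each, which gave 8 groups named BF-0d to IMF-8d and 24 libraries. Per the study's methods, day 0 cells had received growth medium with serum only. From day 0 to day 2 all cells received dexamethasone together with IBMX, an inhibitor of phosphodiesterases that raises cyclic AMP (cAMP), and insulin. From day 2 to day 4 they received insulin alone, and after that growth medium. No culture without dexamethasone was analysed here after day 0, so the action of dexamethasone cannot be told apart from that of IBMX, insulin or time in culture. The study used 3 piglets, and the labels do not say whether replicates came from separate animals, so the p-values measure the spread between these samples. That spread was estimated for each gene over all 8 groups together, so it can differ from that of the groups compared.

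The promoters of DUSP1, ERRFI1, PER1 and SGK1 are shown because these 4 genes rose over the dexamethasone and IBMX interval in at least 1 depot, and that of FKBP5 because this classical receptor target did not. Each window holds the 300 bases before the RefSeq transcript start on Sscrofa11.1. The window is chr16:51457624-51457923 on the plus strand for DUSP1 and chr6:68682630-68682929 on the minus strand for ERRFI1. It is chr12:53376705-53377004 on the minus strand for PER1 and chr7:31550639-31550938 on the minus strand for FKBP5. For SGK1 it is chr1:29625486-29625785 on the plus strand, with no capitals. Capitals mark TGACG on either strand, the 5-base core of the cAMP response element, which is the site of the factor CREB. Where a core and its mirror overlap they spell the whole 8-base element TGACGTCA.
DUSP1: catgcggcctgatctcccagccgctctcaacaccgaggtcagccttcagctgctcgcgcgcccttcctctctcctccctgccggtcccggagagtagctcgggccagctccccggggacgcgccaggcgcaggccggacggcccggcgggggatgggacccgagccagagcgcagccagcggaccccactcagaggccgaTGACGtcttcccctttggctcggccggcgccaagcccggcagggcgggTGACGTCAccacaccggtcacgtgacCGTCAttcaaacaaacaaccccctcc
ERRFI1: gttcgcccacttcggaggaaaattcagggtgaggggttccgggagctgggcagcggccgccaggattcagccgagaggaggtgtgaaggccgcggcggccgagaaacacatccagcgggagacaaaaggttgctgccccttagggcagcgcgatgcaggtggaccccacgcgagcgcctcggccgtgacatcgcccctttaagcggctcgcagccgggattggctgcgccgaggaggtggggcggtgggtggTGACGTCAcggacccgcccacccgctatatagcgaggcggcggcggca
PER1: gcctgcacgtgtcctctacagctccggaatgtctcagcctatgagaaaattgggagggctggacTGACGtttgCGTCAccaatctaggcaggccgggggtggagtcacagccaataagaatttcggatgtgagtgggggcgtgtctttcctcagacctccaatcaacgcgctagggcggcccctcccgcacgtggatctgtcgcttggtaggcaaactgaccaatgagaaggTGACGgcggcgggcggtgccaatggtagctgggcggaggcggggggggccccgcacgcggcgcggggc
SGK1: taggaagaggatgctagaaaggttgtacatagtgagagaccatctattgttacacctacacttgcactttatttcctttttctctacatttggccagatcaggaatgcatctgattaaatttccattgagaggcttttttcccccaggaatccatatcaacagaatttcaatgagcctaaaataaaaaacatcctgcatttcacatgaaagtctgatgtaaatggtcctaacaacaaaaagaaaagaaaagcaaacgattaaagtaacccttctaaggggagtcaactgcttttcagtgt
FKBP5: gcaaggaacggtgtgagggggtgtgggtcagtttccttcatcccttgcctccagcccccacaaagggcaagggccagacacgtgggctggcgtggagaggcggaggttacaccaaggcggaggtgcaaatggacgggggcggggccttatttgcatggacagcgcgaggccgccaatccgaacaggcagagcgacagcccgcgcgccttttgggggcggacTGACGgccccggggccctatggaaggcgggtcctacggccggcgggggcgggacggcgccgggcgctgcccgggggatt

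The 8-base element lay 52 bases before the start of DUSP1 and 48 bases before that of ERRFI1, and 1.81% of 19550 RefSeq promoters of the same length held it. DUSP1 held 4 matches to the 5-base core and ERRFI1 held 2, and in each gene 2 of them made up the whole element. PER1 held 3 matches and FKBP5 held 1, and 22.5% of all promoters held at least 1. The windows of NR3C1, HSD11B1, ZBTB16, KLF9 and SGK1 held 0 matches. The receptor's own element was searched on both strands as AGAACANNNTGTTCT, as the looser GNACANNNTGTNC and as the 6-base arm AGAACA. These letters were in 0 of the 9 windows, against 0.00512%, 0.271% and 12.3% of all promoters. All of the 9 genes except KLF9 and ERRFI1 had more than 1 RefSeq transcript, and the window lies before the start that the highest number of them share, or the farthest upstream in a tie. The window is therefore 1 of several for those 7 genes, such as FKBP5 with 2 of its 10 transcripts at that start and SGK1 with 1 of 5. These matches describe letters in a window and not bound sites.

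Levels were given in FPKM, which corrects fragment numbers for gene length as well as for the size of the library, so levels can be compared between genes. How many reads lie behind each level is unknown. Library totals lay between 307967 and 385768 FPKM, and 9985 to 10858 genes per library reached 1 FPKM. Both the highest total and the lowest gene number were those of BF-2d replicate 2. That library was the lowest of its group for NR3C1 and FKBP5. Replicate 3 of BF-2d stood apart from the others of its group, at -17.2 on the first principal component of all tested genes against 26.5 and 27.2. The labels name adipocytes, but the adipocyte markers ADIPOQ and PLIN1 stayed at or below 0.230 FPKM in every library. The summed level of 10 adipocyte genes nevertheless went from 9.19 to 11.03 FPKM across BF-0d to 303 to 671 FPKM across BF-8d, and from 2.79 to 3.70 FPKM across IMF-0d to 185 to 243 FPKM across IMF-8d, most of it from LPL and PCK1. The mean of PPARG, the master regulator gene of fat cells, was 3.003 FPKM in BF-0d and 0.973 FPKM in BF-8d and at most 0.854 FPKM in the IMF groups, and that of the adipogenic factor gene CEBPA was 2.26, 9.37, 4.02 and 2.35 FPKM in BF-0d to BF-8d and 1.75, 2.89, 5.89 and 1.76 FPKM in IMF-0d to IMF-8d. The summed level of 6 stromal genes had a mean of 12647 FPKM in BF-0d and 3531 FPKM in BF-8d, and of 12272 FPKM in IMF-0d and 6361 FPKM in IMF-8d. Most of that sum came from the collagen genes COL1A1 and COL1A2, whereas the mean of PDGFRA, a receptor gene of stromal progenitors, was 77.0 FPKM in BF-0d and 227.6 FPKM in BF-8d. Of 7 myogenic genes, the muscle intermediate filament gene DES stood at 37.0 ± 7.9 FPKM (SD, n = 3) in IMF-0d and 4.68 ± 0.19 FPKM in BF-0d, while PAX7, MYF5, MYOD1 and MYOG were listed at 0 and CKM and ACTA1 had means of at most 0.0102 FPKM in both groups. The mean of DES was 3.85, 11.66 and 1.68 FPKM in IMF-2d, IMF-4d and IMF-8d, and it was called lower in IMF cells from day 0 to day 2 (log2 fold change -2.96) and from day 4 to day 8 (-2.24) and in BF cells from day 0 to day 2 (-1.49). Its part in the changes over these intervals was not tested. In bulk samples a change in the mix of cells and a change in RNA per cell cannot be told apart.

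NR3C1 (chr2:144822937-144956451) was transcribed in all 24 libraries, from 5.62 to 18.1 FPKM with a median of 13.1 FPKM. Its mean was lowest in IMF-8d, at 8.96 ± 2.41 FPKM (SD, n = 3), and highest in IMF-4d, at 16.3 ± 0.763 FPKM, a range of 1.82-fold. Neighbouring groups in the order of means overlapped at each of the 7 steps. Calls needed both an adjusted p under 0.01 in limma and a log2 fold change of 1 or more either way, computed on FPKM + 1, and NR3C1 was called in 0 of 15 comparisons. Its largest change between days within a depot was that of IMF cells from day 4 to day 8, at -0.82 on the log2 scale (SE 0.23, adjusted p = 0.00829). That change was short of the fold limit, and it was called at -1.01 without replicate 2 of IMF-8d.

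The partners of the receptor were transcribed as well, and few of them were called. Of 8 tested partners, 1 rose in BF cells from day 0 to day 2, against 2.71% of all tested genes, and 0 were called in IMF cells, where 0.328% of all tested genes rose and 0.459% fell. The BF gene was HSPA8, a constitutive heat shock protein gene, at 462, 380 and 399 FPKM on day 0 and 830.4, 969 and 742 FPKM on day 2 (log2 fold change 1.03, SE 0.13, adjusted p = 1.11e-05). The HSP90 genes HSP90AA1 and HSP90AB1 had group means of 259.9 to 416 FPKM and 329 to 547 FPKM. NR3C2, the mineralocorticoid receptor gene, reached a group mean of at most 0.0596 FPKM and was not tested. Of 9 coregulators, 1 fell in BF cells over the same interval, against 3.87% of all tested genes, and 0 were called in IMF cells. Without BF-2d replicate 3, 2 of the 9 fell in BF cells, against 6.12% of all tested genes. The gene that fell with all libraries was NCOA2, a coactivator gene of nuclear receptors, at 7.79, 8.65 and 8.35 FPKM on day 0 and 2.06, 0.633 and 5.26 FPKM on day 2 (log2 fold change -1.56, SE 0.31, adjusted p = 0.000666). Replicate 2 of BF-2d was the lowest of its group for each of the 9 coregulators.

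HSD11B1 (chr9:133231451-133278396) was highest in IMF-8d, at 22.2, 21.7 and 24.5 FPKM. The other 21 libraries lay between 1.14 and 6.47 FPKM, so IMF-8d overlapped with no other group. In IMF cells it stood at 2.95, 2.42 and 2.31 FPKM on day 0, at 2.60, 4.68 and 1.59 FPKM on day 2 and at 3.54, 3.11 and 2.88 FPKM on day 4. The 3 earlier IMF groups therefore overlapped, and the rise came between day 4 and day 8 (log2 fold change 2.51, SE 0.32, adjusted p = 7.01e-06).

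In BF cells HSD11B1 stood at 1.14, 1.98 and 1.39 FPKM on day 0 and at 6.47, 6.22 and 1.78 FPKM on day 2, when replicate 3 lay within the range of day 0. The change was 1.10 on the log2 scale (SE 0.32, adjusted p = 0.0135), and it was not called. Without replicate 3 of BF-2d it was 1.57 and was called (adjusted p = 0.000212). On day 4 the values were 6.09, 5.28 and 2.51 FPKM and on day 8 they were 4.38, 2.20 and 3.09 FPKM. The rise from day 0 to day 4 was called at 1.12 (SE 0.32, adjusted p = 0.00864), but the call held without only 1 of the 6 libraries compared, BF-4d replicate 3, and the change was 0.92 without BF-4d replicate 1. The call was also lost when only those 6 libraries were fitted (adjusted p = 0.0202).

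The other genes of cortisol metabolism were called in neither depot from day 0 to day 2 (0 of 4 tested), against shares of all tested genes of 2.71% higher and 3.87% lower in BF and 0.328% and 0.459% in IMF cells. H6PD, which supplies the cofactor of HSD11B1, had group means from 7.02 FPKM in IMF-0d to 14.2 FPKM in BF-8d. HSD11B2, whose enzyme inactivates cortisol, stayed at group means of at most 0.237 FPKM. STAR, a cholesterol carrier gene, lay between 5.66 and 12.5 FPKM, while CYP11A1, the first enzyme of steroid synthesis, reached at most 0.0375 FPKM.

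**Figure D1:**
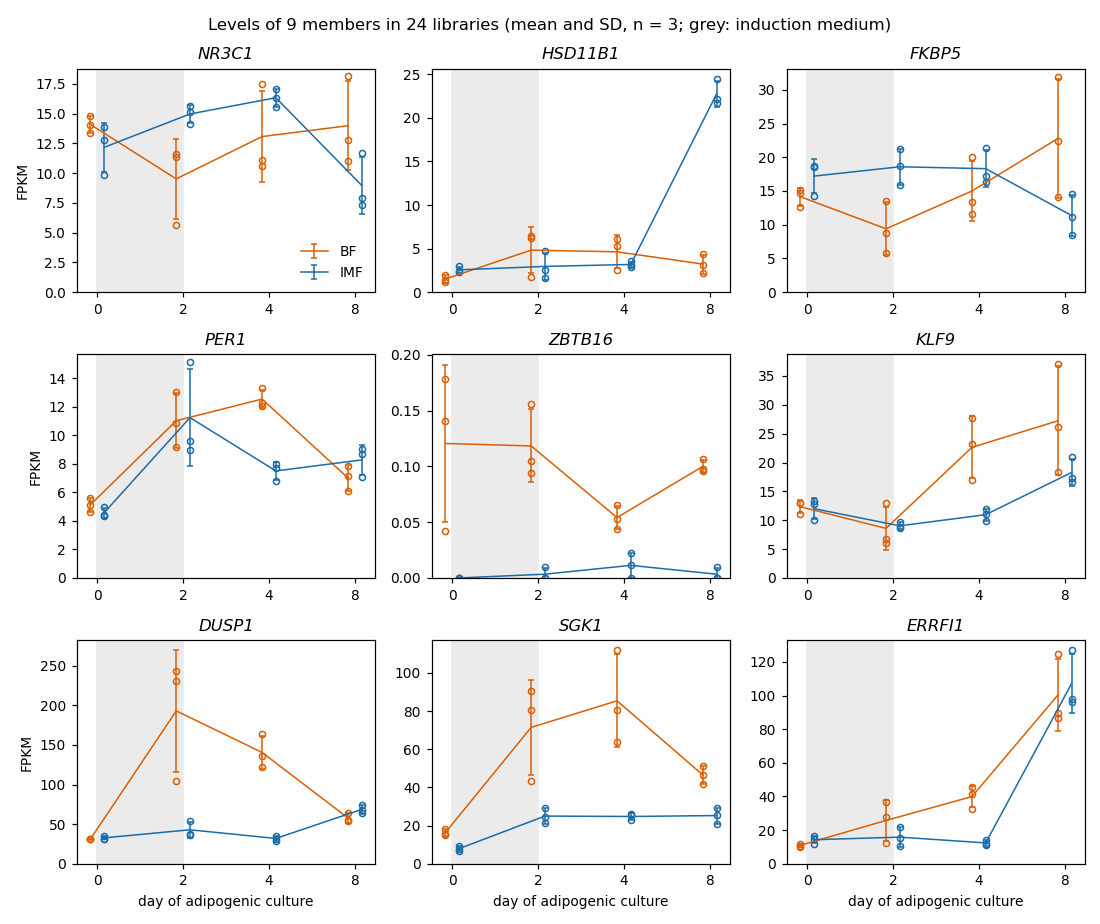
FPKM (vertical axis, from 0, a scale per gene) of the 9 genes against day of culture (horizontal axis, days 0, 2, 4 and 8 drawn at equal steps) in BF (orange) and IMF (blue) cells; circles are libraries, lines join group means, bars are the SD over 3 replicates and grey marks the induction medium. DUSP1 and SGK1 were highest in BF cells on days 2 and 4, and HSD11B1 was highest in IMF-8d, with a mean of 22.8 FPKM.

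Over the 2 days with dexamethasone, 3 of the 9 genes rose in BF cells, against 2.71% of all tested genes, and 2 of the 9 rose in IMF cells, against 0.328% of all tested genes. Of the 9, 0 fell in BF cells, against 3.87% of all tested genes, and 0 fell in IMF cells, against 0.459% of all tested genes. The genes that rose in BF cells were DUSP1, SGK1 and ERRFI1, and those that rose in IMF cells were SGK1 and PER1. The median change over the 9 genes was 0.96 in BF and 0.11 in IMF cells on the log2 scale, beside -0.04 and -0.01 over all tested genes. Without replicate 3 of BF-2d, 5 of the 9 rose in BF cells, PER1 and HSD11B1 being the additional genes, against 3.89% of all tested genes. Without replicate 2 of IMF-2d, 1 of the 9 rose in IMF cells, against 0.161% of all tested genes, and the IMF median was 0.18.

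Cell type markers moved over the same days in BF cells. The myogenic gene DES was called lower in both depots (-1.49 in BF and -2.96 in IMF cells). The summed level of the 10 adipocyte genes was 47.6 to 705 FPKM across BF-2d and 5.18 to 7.91 FPKM across IMF-2d. Most of the BF-2d sum came from PCK1 alone, at 611, 461 and 24.5 FPKM. Of the 6 that were tested, LPL (3.54), PCK1 (7.50) and CEBPA (1.67) rose and FABP4 (-1.15) fell in BF cells, against 2.71% and 3.87% of all tested genes, and 0 of the 6 were called in IMF cells, against 0.328% and 0.459%. The stromal genes PDGFRA (1.86) and COL1A1 (-1.10) and the endothelial gene PECAM1 (-1.13, from a mean of 4.75 to 1.65 FPKM) were called in BF cells as well. The other endothelial genes CDH5, KDR and TEK had group means of at most 0.0647 FPKM. The part of these markers in the changes of the 9 genes was not tested.

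SGK1 (chr1:29625786-29753619), a kinase gene of ion transport and cell survival, rose in both depots. BF cells held 15.1, 18.2 and 15.4 FPKM on day 0 and 90.4, 80.5 and 43.4 FPKM on day 2, with no overlap (log2 fold change 2.01, SE 0.22, adjusted p = 1.58e-06). The BF call held under every alternative, with adjusted p-values up to 0.00921. IMF cells held 6.84, 9.25 and 7.56 FPKM on day 0 and 24.5, 29.3 and 21.1 FPKM on day 2, again with no overlap (log2 fold change 1.55, SE 0.22, adjusted p = 0.000185). The rises of the depots differed by -0.46 (SE 0.31, 95% interval -1.12 to 0.19), and that difference was not called.

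PER1 (chr12:53361863-53376723), a gene of the circadian clock, was called in IMF cells and fell just short of a call in BF cells. IMF cells held 4.41, 4.34 and 4.97 FPKM on day 0 and 9.62, 15.1 and 8.98 FPKM on day 2 (log2 fold change 1.10, SE 0.15, adjusted p = 0.00015). BF cells held 4.64, 5.12 and 5.63 FPKM on day 0 and 13.0, 10.9 and 9.21 FPKM on day 2. The groups overlapped in neither depot. The BF change was 0.96 (SE 0.15, adjusted p = 9.64e-05), which was past the p limit and just under the fold limit. The IMF call was lost when only the 6 libraries compared were fitted (adjusted p = 0.0114). The IMF change was 0.89 without replicate 2 of IMF-2d, also just under the fold limit, and the BF change was called without replicate 3 of BF-0d (1.02) or of BF-2d (1.08). The BF change was also called with a pseudocount of 0.1 (1.08), median ratio scaling (1.06) or quantile normalization (1.04). The depots differed in this change by 0.14 (SE 0.22, 95% interval -0.32 to 0.60).

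DUSP1 (chr16:51457924-51461095) encodes a phosphatase that switches off MAP kinases. BF cells held 30.6, 31.4 and 30.8 FPKM on day 0 and 231, 244 and 104 FPKM on day 2 (log2 fold change 2.51, SE 0.22, adjusted p = 1.21e-07). That call held under every alternative, with adjusted p-values up to 0.00751. IMF cells held 31.5, 31.8 and 34.7 FPKM on day 0 and 37.5, 54.5 and 36.7 FPKM on day 2 (log2 fold change 0.36, SE 0.22, adjusted p = 0.378). The depots thus started level and parted by day 2, and no BF-2d library overlapped with IMF-2d. The change differed between the depots by -2.15 (IMF minus BF, SE 0.31, adjusted p = 0.00039), and this call was lost when only the 12 libraries compared were fitted (adjusted p = 0.0114).

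ERRFI1 (chr6:68667651-68682629) encodes an inhibitor of the EGF receptor. BF cells held 10.2, 10.8 and 11.8 FPKM on day 0 and 36.9, 27.8 and 12.6 FPKM on day 2, when replicate 3 was barely above day 0 (log2 fold change 1.05, SE 0.28, adjusted p = 0.0074). This call held without 1 of the 6 libraries compared, BF-2d replicate 3, where the change was 1.47. It was lost without BF-0d replicate 1, 2 or 3 (1.001, 1.04 and 1.10) and without BF-2d replicate 1 or 2 (0.73 and 0.93), and also when only the 6 libraries compared were fitted (adjusted p = 0.0922). IMF cells held 16.2, 12.03 and 14.6 FPKM on day 0 and 15.1, 22.0 and 10.3 FPKM on day 2, which overlapped.

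FKBP5, KLF9 and ZBTB16 were called in neither depot over the same interval. FKBP5 (chr7:31441764-31550704) encodes a co-chaperone that lowers the receptor's affinity for hormone. BF cells held 14.7, 12.7 and 15.1 FPKM on day 0 and 8.78, 5.81 and 13.6 FPKM on day 2, and IMF cells held 18.5, 18.8 and 14.3 FPKM on day 0 and 21.2, 15.9 and 18.7 FPKM on day 2. The groups overlapped in each depot. The change was -0.61 in BF cells (95% interval -1.17 to -0.05, adjusted p = 0.0914) and 0.11 in IMF cells (95% interval -0.46 to 0.67, adjusted p = 0.898). Both intervals lay below a rise of 1 on the log2 scale.

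KLF9 (chr1:223723613-223747661), a zinc finger transcription factor gene, was not higher on day 2 either. BF cells held 11.08, 13.0 and 13.0 FPKM on day 0 and 12.9, 6.71 and 6.12 FPKM on day 2 (log2 fold change -0.54, 95% interval -1.03 to -0.06, adjusted p = 0.0821). In IMF cells the means were 12.01 ± 1.76 FPKM on day 0 and 9.03 ± 0.623 FPKM on day 2 (SD, n = 3), with a change of -0.37 (95% interval -0.85 to 0.12). ZBTB16 (chr9:41639536-41839254), a transcription factor gene that responds to dexamethasone in many cells, was barely measured. It was listed at 0 in 8 of 24 libraries and reached 0.178 FPKM at most. On the log2 scale of FPKM + 1 its change was -0.0013 in BF and 0.0048 in IMF cells, a scale that understates changes of such low values.

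**Figure D2:**
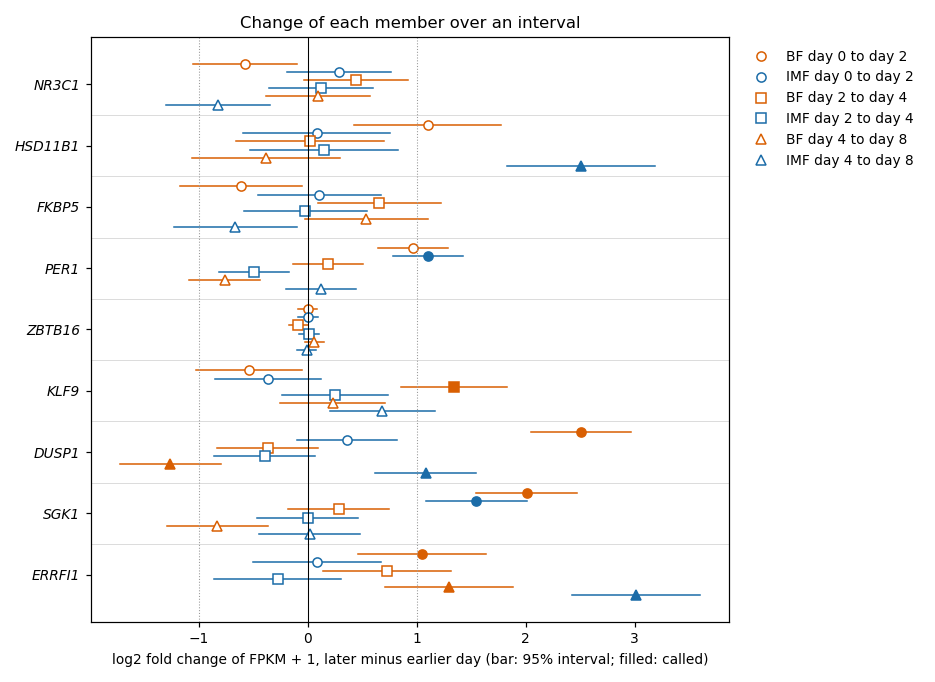
Log2 fold change of FPKM + 1 (horizontal axis, later minus earlier day) of the 9 genes (vertical axis) in BF (orange) and IMF (blue) cells over the 3 intervals; bars are 95% intervals, filled symbols were called and dotted lines mark the fold limit of 1 either way. From day 0 to day 2 DUSP1 stood at 2.51 in BF and 0.36 in IMF cells, and from day 4 to day 8 HSD11B1 stood at -0.38 in BF and 2.51 in IMF cells.

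Genes that answer to cAMP moved in the same interval, when the medium also held IBMX. Of 8 tested genes of the cAMP response, 7 rose in BF cells and 2 rose in IMF cells, against 2.71% and 0.328% of all tested genes, with medians of 2.79 and 1.31 on the log2 scale. In BF cells SIK1, a kinase gene induced by CREB, went from 0.878, 1.19 and 1.50 FPKM to 72.8, 68.1 and 9.17 FPKM (log2 fold change 4.10, SE 0.54). PDE4B, a cAMP phosphodiesterase gene, rose by 3.49 in BF cells (SE 0.34) and by 2.56 in IMF cells (SE 0.34). NR4A1, an orphan nuclear receptor gene, held 67.2, 69.7 and 15.9 FPKM in BF-2d and 20.3, 55.0 and 13.3 FPKM in IMF-2d. Replicate 3 of BF-2d was thus the lowest of its group for SIK1 and NR4A1, as it was for DUSP1, SGK1, ERRFI1, PER1 and HSD11B1, and for KLF9, which did not rise, whereas it was the highest for NR3C1 and FKBP5. Replicate 2 of IMF-2d was the highest of its group for NR4A1, as it was for DUSP1, SGK1, ERRFI1, PER1 and HSD11B1. The part of the cAMP response in these changes was not tested. The count was 7 in BF cells also without BF-2d replicate 3, against 3.89% of all tested genes, and was 3 in IMF cells without that library, against 0.471%. Without IMF-2d replicate 2 the IMF count was 1, against 0.161% of all tested genes, and the IMF median was 0.77.

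Other genes known to be induced by the receptor were also counted, and the difference in counts between depots was not tested. Of 21 tested, 8 rose and 1 fell in BF cells, against 2.71% and 3.87% of all tested genes. In IMF cells 2 rose and 1 fell, against 0.328% and 0.459% of all tested genes, and the medians were 0.83 in BF and 0.26 in IMF cells. RGS2, a regulator gene of G protein signals, went from 0.457, 0.621 and 0.331 FPKM to 129, 129 and 12.1 FPKM in BF cells (log2 fold change 5.37, SE 0.62). ANGPTL4, an inhibitor gene of lipoprotein lipase, changed by 3.53 in BF cells (SE 0.27), and DDIT4, an inhibitor gene of mTOR signalling, by 3.29 (SE 0.26). CRISPLD2, a secreted protein gene, rose in IMF cells from 8.51, 6.29 and 7.19 FPKM to 25.5, 25.4 and 24.5 FPKM (log2 fold change 1.66, SE 0.19). SESN1, a stress response gene, rose by 1.48 in IMF cells (SE 0.22). Without BF-2d replicate 3, 9 of the 21 rose in BF cells, against 3.89% of all tested genes, and without IMF-2d replicate 2, 0 of the 21 fell in IMF cells, against 0.267% of all tested genes.

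Genes that the receptor is known to repress were also followed. Of 10 tested, 3 rose and 0 fell in BF cells, and 1 rose and 0 fell in IMF cells, beside the same shares of all tested genes (2.71% and 3.87% in BF, 0.328% and 0.459% in IMF cells). The interleukin gene IL6 went in BF cells from 3.91, 3.13 and 5.13 FPKM to 381, 472 and 79.3 FPKM (log2 fold change 5.61, SE 0.54). The chemokine gene CXCL8 (4.78, SE 0.77) and the prostaglandin synthase gene PTGS2 (4.70, SE 0.65) rose as well. In IMF cells the gene that rose was VCAM1, an adhesion molecule gene (log2 fold change 1.48, SE 0.22). Without BF-2d replicate 3, 5 of the 10 rose in BF cells and 2 in IMF cells, against 3.89% and 0.471% of all tested genes.

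**Figure D3:**
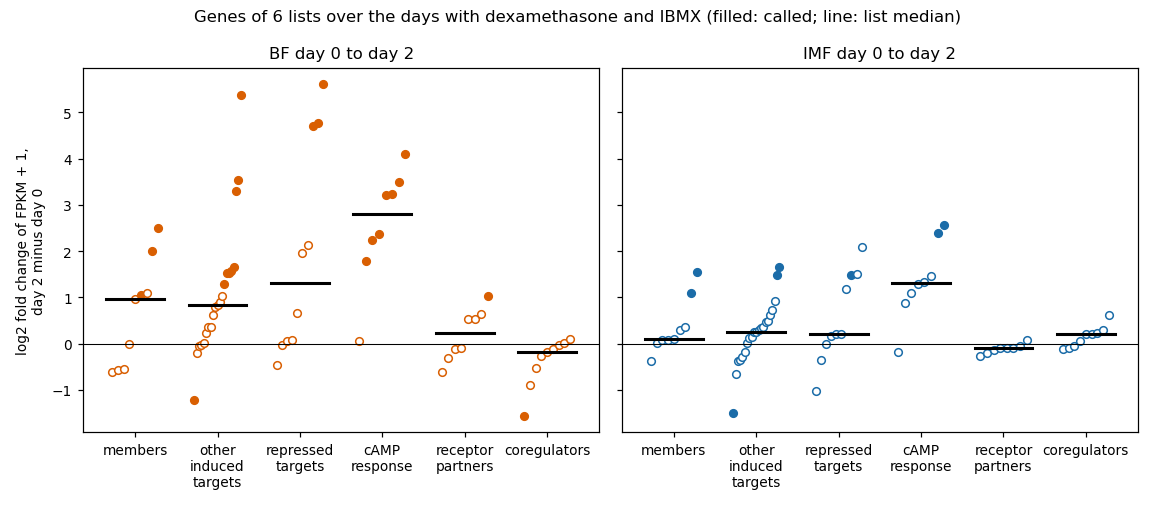
Log2 fold change of FPKM + 1 from day 0 to day 2 (vertical axis) of the tested genes of 6 lists (horizontal axis) in BF (left) and IMF (right) cells; each point is a gene, filled points were called and black lines are list medians. The cAMP response list had the highest median in each depot, at 2.79 in BF and 1.31 in IMF cells.

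Dexamethasone and IBMX were both withdrawn on day 2, and few of the 9 genes were called between then and day 4. From day 2 to day 4, 1 of the 9 genes rose in BF cells, against 2.01% of all tested genes, and 0 of the 9 were called in IMF cells, against 0.0372% of all tested genes. An unadjusted p under 0.05 was reached in IMF cells by 1 of the 9 (PER1, -0.49, adjusted p = 0.252), against 8.34% of all tested genes. The BF gene was KLF9, from 12.9, 6.71 and 6.12 FPKM to 17.0, 27.7 and 23.2 FPKM, with no overlap (log2 fold change 1.34, SE 0.23, adjusted p = 0.000467), a call that was lost when only the 6 libraries compared were fitted (adjusted p = 0.145). Without BF-2d replicate 1, ERRFI1 was also called, at 1.04. DUSP1 stood at 164, 136 and 122 FPKM and SGK1 at 80.5, 63.8 and 112 FPKM in BF-4d, so both kept levels above those of BF-0d. Against day 0, 5 of the 9 genes were higher in BF-4d, against 5.28% of all tested genes, namely HSD11B1 (1.12), PER1 (1.15), DUSP1 (2.14), SGK1 (2.29) and ERRFI1 (1.77). In IMF-4d 1 of the 9 was higher than on day 0, against 0.57% of all tested genes, and it was SGK1 (1.54).

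From day 4 to day 8 the direction of DUSP1 was opposite in the depots. In BF cells 1 of the 9 genes rose, against 1.78% of all tested genes, and 1 fell, against 1.14% of all tested genes. DUSP1 fell to 53.5, 64.3 and 55.5 FPKM in BF-8d (log2 fold change -1.26, SE 0.22, adjusted p = 0.000566). ERRFI1 rose from 32.8, 41.5 and 45.5 FPKM to 86.5, 125 and 89.4 FPKM (log2 fold change 1.299, SE 0.28, adjusted p = 0.00312), a call that held without 3 of the 6 libraries compared. It was lost without BF-4d replicate 1 (1.17) or 2 (1.33) and without BF-8d replicate 2 (1.13). With only the 6 libraries compared in the fit, neither DUSP1 (adjusted p = 0.0269) nor ERRFI1 (adjusted p = 0.0374) was called. SGK1 changed by -0.83 (SE 0.22, adjusted p = 0.0127) and was called without BF-4d replicate 2 (-1.02). PER1 changed by -0.76 (SE 0.15, adjusted p = 0.00191), short of the fold limit.

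In IMF cells 3 of the 9 genes rose from day 4 to day 8, against 4.16% of all tested genes, and 0 fell, against 3.08% of all tested genes. Besides HSD11B1 these were ERRFI1, from 14.4, 11.6 and 11.15 FPKM to 98.1, 96.1 and 127 FPKM (log2 fold change 3.01, SE 0.28, adjusted p = 1.24e-07), and DUSP1, from 35.1, 31.6 and 29.1 FPKM to 67.8, 63.8 and 74.3 FPKM (log2 fold change 1.08, SE 0.22, adjusted p = 0.000808). The groups overlapped for none of these. KLF9 changed by 0.69 (SE 0.23, adjusted p = 0.0272) and FKBP5 by -0.66 (SE 0.27, adjusted p = 0.0617). The medium held no added dexamethasone or IBMX in this interval. Of the 8 genes of the cAMP response 5 rose and 1 fell, of the 21 other induced targets 6 rose and 1 fell, and of the 10 repressed targets 6 rose and 0 fell in IMF cells over the same days, beside the shares of all tested genes above. SIK1 rose by 4.91 (SE 0.54), RGS2 by 5.30 (SE 0.62) and CXCL8 by 7.01 (SE 0.77). Cell type markers were called over these days as well. LPL (4.21) and PCK1 (6.09) rose, and CEBPA (-1.33), COL1A1 (-1.09) and DES (-2.24) fell. The part of these genes and markers in the rises of HSD11B1, DUSP1 and ERRFI1 was not tested.

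Between depots, 0 of the 9 genes were called on day 0, against 2.58% of all tested genes. An unadjusted p under 0.05 was reached by SGK1 at -0.96 and ZBTB16 at -0.16 (IMF minus BF), 2 of the 9 against 25.6% of all tested genes. ZBTB16 was listed at 0 in each IMF-0d library and held 0.0424, 0.178 and 0.141 FPKM in BF-0d, and with a pseudocount of 0.1 in place of 1 it was called lower in IMF cells on day 0 (-1.08) and on day 2 (-1.07), so the size of its difference rests on the pseudocount. SGK1 held 6.84 to 9.25 FPKM in IMF-0d and 15.1 to 18.2 FPKM in BF-0d, with no overlap (adjusted p = 0.00517), just short of the fold limit, and was called at -1.07 without IMF-0d replicate 2. On day 2, 2 of the 9 were lower in IMF cells, against 2.02% of all tested genes. They were DUSP1 (-2.07, SE 0.22, adjusted p = 1.61e-06) and SGK1 (-1.43, SE 0.22, adjusted p = 0.000129). Both calls were lost when only the 6 libraries of day 2 were fitted (adjusted p = 0.0293 and 0.0457). Without BF-2d replicate 3, 3 were lower and 1 was higher in IMF cells, against 3.14% and 4.84% of all tested genes, with ERRFI1 (-1.03) and FKBP5 (1.25) in addition.

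On day 4, 3 of the 9 were lower in IMF cells, against 4.72% of all tested genes. DUSP1 differed by -2.10, SGK1 by -1.71 and ERRFI1 by -1.61 (adjusted p = 3.34e-07, 4.39e-06 and 0.000118). KLF9 differed by -0.96 (adjusted p = 0.00234), and was called without BF-4d replicate 1 (-1.14) or IMF-4d replicate 3 (-1.02). It was also called with a pseudocount of 0.1 (-1.01), median ratio scaling (-1.12) or quantile normalization (-1.08). On day 8, 1 of the 9 differed, against 4.31% of all tested genes higher in IMF cells, and it was HSD11B1 (2.52, SE 0.32, adjusted p = 6.68e-06). DUSP1 and ERRFI1 had reached levels that overlapped between depots, with differences of 0.25 (95% interval -0.22 to 0.71) and 0.10 (95% interval -0.48 to 0.69). FKBP5 held 14.2, 31.8 and 22.4 FPKM in BF-8d and 11.07, 14.5 and 8.49 FPKM in IMF-8d (-0.90, SE 0.27, adjusted p = 0.0125), and was called without BF-8d replicate 1 (-1.19) or IMF-8d replicate 2 (-1.08). SGK1 held 46.3, 41.8 and 51.4 FPKM in BF-8d and 25.8, 29.2 and 20.8 FPKM in IMF-8d, with no overlap, and was past the p limit but short of the fold limit (-0.86, SE 0.22, adjusted p = 0.00467).

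**Figure D4:**
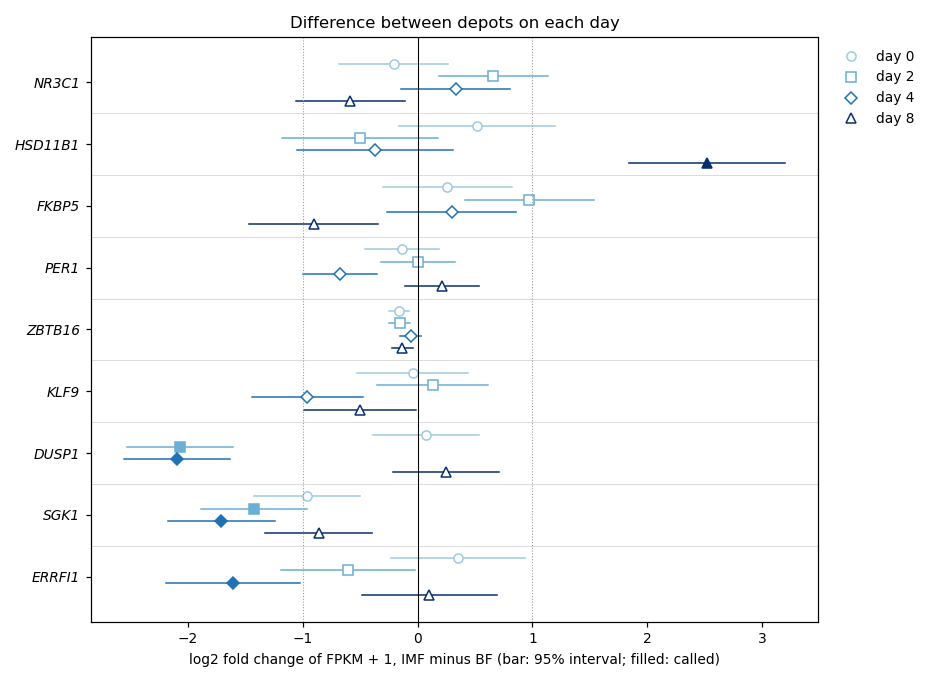
Log2 fold change of FPKM + 1 (horizontal axis, IMF minus BF) of the 9 genes (vertical axis) on days 0, 2, 4 and 8 (light to dark blue); bars are 95% intervals, filled symbols were called and dotted lines mark the fold limit of 1 either way. DUSP1 was near 0 on days 0 and 8 and at -2.07 and -2.10 on days 2 and 4, and HSD11B1 was called on day 8 at 2.52.

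The change over an interval was then compared between the depots. From day 0 to day 2 it differed for 1 of the 9 genes, DUSP1, against 1.21% of all tested genes with a lower change in IMF cells, and for 3 without BF-2d replicate 3 (HSD11B1 at -1.49 and ERRFI1 at -1.38 in addition), against 3.17% of all tested genes. From day 2 to day 4 it differed for 0 of the 9, against 3.06% of all tested genes, and 3 of the 9 were at an unadjusted p under 0.05 (PER1 at -0.68, KLF9 at -1.09 and ERRFI1 at -1.001), against 28.6% of all tested genes. KLF9 was called there at -1.40 without BF-2d replicate 1. From day 4 to day 8 it differed for 3 of the 9, against 3.81% of all tested genes with a higher change in IMF cells. These were HSD11B1 (2.89, SE 0.46, adjusted p = 0.000193), DUSP1 (2.34, SE 0.31, adjusted p = 3.52e-05) and ERRFI1 (1.71, SE 0.40, adjusted p = 0.00487). The ERRFI1 difference was 1.58 to 1.88 without each of the 12 libraries compared in turn, and the call held without 5 of them. Without BF-8d replicate 1, FKBP5 was called in the opposite direction (-1.49, adjusted p = 0.00709).

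Over the 8 group means, the levels of DUSP1 and SGK1 (Pearson's r = 0.851), NR3C1 and FKBP5 (r = 0.827) and PER1 and SGK1 (r = 0.819) were the most alike of the 36 pairs, and those of NR3C1 and HSD11B1 the least (r = -0.709). Among 7547 other genes that had a symbol and reached 5 FPKM in their highest group mean, WDR48 (r = 0.955), PAPPA (0.954) and VPS54 (0.952) had the pattern most like NR3C1. CALCOCO1 (0.981), PNOC (0.978) and C14orf119 (0.964) were the most like HSD11B1, and MAX (0.968), ERN1 (0.958) and UFSP2 (0.952) the most like FKBP5. PDPN (0.939), NHERF2 (0.883) and EEF1A2 (0.868) were the most like the barely measured ZBTB16. These are descriptions over 8 points that share days and depots. Those of HSD11B1 rest largely on IMF-8d, with a mean of 22.8 FPKM against at most 4.83 FPKM in the other groups. The same group had the lowest mean of NR3C1.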

How the data were processed

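Polyadenylated RNA of 24 cultures was sequenced by the authors as paired reads, aligned with HISAT2 to Sscrofa11.1 and quantified with StringTie 1.3.4d. The deposited values were FPKM per gene and library, normalized by the authors for transcript length and mapped fragments, and keep no read counts. The authors called genes with DESeq2 1.6.3, a test for read counts, so it was replaced here.

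Symbols were found for 14815 of 21271 Ensembl identifiers. Genes with a summed FPKM above 1 were tested as log2(FPKM + 1) with limma 3.58.1 in R 4.3.3 (eBayes with trend and robust), with 1 mean per group over all 24 libraries and 15 contrasts. Calls required p under 0.01 after Benjamini-Hochberg adjustment over all tested genes, and a log2 fold change of 1 or more either way. The script was checked on simulated data. Alternatives were another pseudocount, other filters and scalings, only the libraries compared, a replicate block and each library left out. List counts without BF-2d replicate 3 or IMF-2d replicate 2 were added after seeing the data. No 2 libraries held identical values.

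All 9 genes are named. From each other list, at most 4 called genes with the largest change and a group mean of 1 FPKM or more are named per comparison, apart from HSP90AA1, HSP90AB1, NR3C2, H6PD, HSD11B2, STAR and CYP11A1, which are given as levels. A gene that this rule names is not reported here. The genes and lists were chosen with earlier results of these data known, so patterns shared with them are not independent support. The genes most like a member were the 3 with the highest Pearson's r. Gene and promoter positions are from RefSeq on Sscrofa11.1.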

Additional observations from a re-analysis of the deposited data

Results flagged for a closer look

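For 3 of the genes the change over an interval differed between the depots, as tested by the interaction contrast of limma (IMF minus BF). DUSP1 differed in both directions, by -2.15 from day 0 to day 2 and by 2.34 from day 4 to day 8. BF cells rose from a mean of 30.9 to 193 FPKM by day 2 and fell from 141 to 57.8 FPKM between days 4 and 8, whereas IMF cells stood at 32.7, 42.9 and 31.9 FPKM on days 0, 2 and 4 and rose to 68.6 FPKM on day 8. HSD11B1 differed by 2.89 from day 4 to day 8, with IMF cells going from 3.18 to 22.8 FPKM and BF cells at 4.63 and 3.22 FPKM. ERRFI1 differed by 1.71 over the same days, with a rise from 12.4 to 107 FPKM in IMF and from 39.9 to 100.3 FPKM in BF cells. The ERRFI1 result was not called without replicate 2 or 3 of BF-4d, 1 or 3 of BF-8d, 2 or 3 of IMF-4d or 3 of IMF-8d, with adjusted p-values up to 0.0163. The DUSP1 result from day 0 to day 2 was not called when the fit held only the 12 libraries of the 4 groups compared (adjusted p = 0.0114).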

How the results depend on the processing

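The 15 comparisons held 27 calls of single genes, and 0 of these changes turned in direction under any alternative. Of the 27 calls, 18 held under all 7 other settings and 17 also without each library in turn. Leaving out the filter on low values lost 2 calls, ERRFI1 from day 0 to day 2 and HSD11B1 from day 0 to day 4 in BF cells, and fitting only the libraries compared lost 9. In that smaller fit the number of the 9 genes called was 0 for BF day 2 to 4, BF day 4 to 8, IMF minus BF on day 2 and the depot difference in the change from day 0 to day 2, and 1 for IMF day 0 to 2. Its fewer libraries leave fewer degrees of freedom. IMF minus BF on day 0 gave 2 calls at a pseudocount of 0.1 and 1 with either median ratio scaling or quantile normalization. Median ratio scaling gave 2 calls for IMF minus BF on day 8, and quantile normalization gave 5 for BF day 0 to 2. Those scalings moved the median of all genes by at most 0.0774.

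Without each library in turn, the number of calls ranged from 2 to 5 for BF day 0 to 2, 1 to 2 for BF day 2 to 4, BF day 4 to 8 and IMF day 0 to 2, 0 to 1 for IMF minus BF on day 0, 2 to 4 on day 2 and 1 to 2 on day 8. For the depot difference in change it ranged from 1 to 3 from day 0 to day 2, 0 to 1 from day 2 to day 4 and 2 to 3 from day 4 to day 8.

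Replicate numbers did not pair the samples. Of 30 pairs of libraries with the same number, 5 had deviations that correlated above 0.1 (range -0.247 to 0.192), and 16 of 60 samples correlated best with their own number. With the replicate block, 4 genes were called for BF day 0 to 2, HSD11B1 being added at 1.10 (adjusted p = 0.00698), and in the other 14 comparisons the number was the same. The read depth behind low values such as those of ZBTB16 is unknown.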
